A study of Mus musculus with 24 samples.

Results

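Aminoacyl-tRNA synthetases are the enzymes that join each amino acid to its own transfer RNA, and their RNA levels were compared between parental and dormant mouse melanoma and leukemia cells. The set held 39 of the 45622 genes and unnamed transcripts on the arrays. It was defined by gene name, with earlier results of these data known. It consisted of 20 cytosolic enzymes, 16 mitochondrial enzymes, whose symbols end in 2, and 3 scaffold proteins without enzyme activity of their own (Aimp1, Aimp2 and Eef1e1). All 39 had a probe, and 37 were well above background on all 24 arrays. The others lacked a value on 1 array each, where the scanner software had marked the spot as an outlier, namely Aars2 on M0-p20 replicate 2 and Rars2 on B16-M replicate 0.

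The arrays held B16-M, the parental GFP-tagged B16F1 melanoma line (3 arrays), and B16-D, dormant melanoma cells recovered from mice of the same strain (4 arrays). They also held B16-D-733 (4), B16-D-735 (3) and B16-D-739 (3), read here as the second-generation dormant lines from the brain, which the labels do not say. M0-p20 (4) and J365-p20 (3) came from leukemia cells and were read as parental DA1-3b, a myeloid leukemia line, and its derivative recovered from dormancy after a year, which is likewise an inference. The dormant cells came from mice vaccinated with irradiated tumour cells that overproduced a cytokine, interleukin-12 for leukemia and GM-CSF for melanoma, and were expanded in culture before RNA extraction. The melanoma lines were grown in DMEM with serum, and the labels give the leukemia arrays no growth conditions of their own. No label ties the arrays of a line to separate cultures, so p-values measure the spread between these arrays, which may be technical. B16-D-733 replicates 1 and 3 carry the same name in their titles and lay on the same slide, so they may be repeat arrays of 1 sample, which would leave 3 samples of that line. The titles of B16-D replicates 1 to 3 and B16-D-733 replicates 1 to 3 hold a date, of a step that is not stated, and those of the other arrays hold none. In such bulk RNA, fewer cells of a type and less RNA per cell cannot be told apart.

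B16-D replicate 2 stood apart and was left out, with 90.3% of its spots well above background against 46.0% to 55.8% on the other 23 arrays. All 7 melanoma markers were above background on at least 1 in 2 of the melanoma arrays. By the same rule leukemia arrays lacked Mlana, Pmel and Tyrp1 but held the other 4 (Tyr, Dct, Mitf and Sox10). Of 8 myeloid markers 5 were detected in leukemia (not Kit, Cebpa or Cd33) and 3 in melanoma (Kit, Csf2rb and Itgam). Detection alone therefore did not separate the models for these markers. All 7 melanoma markers were higher in B16-M than in M0-p20, by 5.296 or more on the log2 scale. Of 6 myeloid markers tested 5 were lower in B16-M, and Kit was higher by 5.563. Of 6 fibroblast markers, 3 were detected in melanoma (Col1a1, Col3a1 and Dcn were not), and their summed log2 level lay between -0.71 and -0.40 in B16-M, -0.84 and -0.42 in B16-D, -0.63 and -0.15 in B16-D-733, 0.25 and 0.67 in B16-D-735, and -1.42 and -1.13 in B16-D-739. Single fibroblast markers passed the test against B16-M. Pdgfrb, a growth factor receptor, was higher by 3.29 in B16-D, 4.21 in B16-D-733, 3.52 in B16-D-735 and 3.85 in B16-D-739 on the log2 scale. The matrix protein gene Dcn was higher by 4.96 in B16-D-735, and the collagen gene Col1a2 differed by -1.32 in B16-D-739. Of 4 endothelial markers, 1 was detected. The part of such cells in the differences below was not tested.

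Charging of transfer RNA happens separately in the cytosol and in mitochondria, and most amino acids have a nuclear gene for each compartment, although Gars and Kars encode both forms. In the cytosol several of the enzymes, with the 3 scaffold proteins, form the multisynthetase complex (11 members here). When amino acids run short or the endoplasmic reticulum is stressed, the transcription factor ATF4 raises many cytosolic synthetase genes together with genes of amino acid synthesis and import. Rapidly growing cells are known for high synthetase levels, and the scaffold proteins Aimp2 and Eef1e1 also have roles in cell death and DNA damage signalling.

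Promoters of 30 of the 39 genes were found in the RefSeq table (GRCm38.p6, from 250 bases before to 50 after the start). The sites below are shown because 5 of the 13 cytosolic genes with a promoter held the ATF4 letters TGATGNAA on either strand. None of 14 mitochondrial and none of 3 scaffold genes held them, and 3.969% of 32851 promoters did. A gene counts if any of its promoters holds the letters, while the percentage is per promoter, so these are unlike measures for each motif. The 5 genes were among the 8 with a promoter in the list of 12 ATF4-responsive enzymes. Capitals mark the match. The windows lie at chr8:111033700-111033767 (+) and chr8:111033821-111033871 (+) for Aars, chr6:55037941-55038008 (+) for Gars, chr13:49682107-49682159 (+) for Iars, chr15:11399636-11399703 (-) for Tars and chr4:129189876-129189932 (+) for Yars.
Aars, upstream site: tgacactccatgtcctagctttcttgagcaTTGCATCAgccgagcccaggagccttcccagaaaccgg
Aars, site at the start: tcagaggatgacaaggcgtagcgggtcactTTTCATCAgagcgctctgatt
Gars: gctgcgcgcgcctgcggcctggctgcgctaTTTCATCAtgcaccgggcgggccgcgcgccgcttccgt
Iars: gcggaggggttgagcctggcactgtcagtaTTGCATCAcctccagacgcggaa
Tars: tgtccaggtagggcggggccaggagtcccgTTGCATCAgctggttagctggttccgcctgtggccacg
Yars: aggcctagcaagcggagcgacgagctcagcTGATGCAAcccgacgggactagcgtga
Counted from the transcription start, the match began at -112 at the upstream site of Aars, at -30 in Gars and at -15 in Tars. Of the 6 sites, 5 read as the reverse complement on the gene's strand, all but that of Yars.

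The other motifs searched on both strands were GCATGCGC (NRF1), CCGGAAG (ETS) and CACGTG (E-box), none of which lies within another. NRF1, a regulator of genes for mitochondrial proteins, had its letters in 3 of 14 mitochondrial genes (Rars2, Vars2 and Wars2), in none of 13 cytosolic ones and in 2.712% of all promoters. ETS letters stood in 5 cytosolic, 4 mitochondrial and 2 scaffold genes, and in 8.858% of all promoters. The E-box was held by 4 cytosolic genes (Aars, Farsb, Iars and Tars), by Ears2, and by 7.15% of all promoters. The windows of Farsa (chr8:84856934-84857000, +), Aimp2 (chr5:143909907-143909973, -) and Wars2 (chr3:99140996-99141063, +) are given because these genes differed between melanoma lines, and so is the promoter of Eef1e1 (chr13:38658999-38659278, -, 280 bases), which held none of the 4 motifs.
Farsa, ETS: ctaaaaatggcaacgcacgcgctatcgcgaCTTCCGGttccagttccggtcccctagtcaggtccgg
Aimp2, ETS: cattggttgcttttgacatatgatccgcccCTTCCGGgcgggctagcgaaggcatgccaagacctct
Wars2, NRF1: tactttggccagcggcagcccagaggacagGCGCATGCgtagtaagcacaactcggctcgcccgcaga
Eef1e1, no match: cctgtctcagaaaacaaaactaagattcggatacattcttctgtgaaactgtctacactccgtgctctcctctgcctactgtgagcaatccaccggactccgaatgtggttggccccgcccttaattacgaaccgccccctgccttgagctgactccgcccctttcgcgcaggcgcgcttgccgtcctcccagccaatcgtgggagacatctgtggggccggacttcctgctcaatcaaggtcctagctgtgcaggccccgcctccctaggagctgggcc
Aars2 also differed between melanoma lines, and its promoters, not shown, held none of the 4 motifs. For Vars, which differed as well, no promoter was found. A match is a run of letters and shows no binding.

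Whether dormant leukemia cells differed from their parental line was asked first. No synthetase passed the test in J365-p20 against M0-p20 (limma, Benjamini-Hochberg adjusted p under 0.05), where 1.08% of all 23036 genes did, and 2 of the 39 had an unadjusted p under 0.05, as did 1597 of all genes. Values are log2 levels, the signal of a gene's brightest probe relative to the 75th percentile of its array, and differences are log2 fold changes. The point estimate was above 0 for 34 of the 39, against 47.43% of all genes, and the median difference was 0.21 against -0.02 over all genes. Of the 20 cytosolic enzymes 19 had an estimate above 0, Dars (aspartate) being the exception, with a median of 0.27. The 16 mitochondrial enzymes had a median of 0.14, and the 12 ATF4-responsive enzymes one of 0.34. The cytosolic median difference was 0.0436 on slide 1, 0.449 on slide 2 and 0.257 on slide 3, so it was near 0 on the first of the 3 slides, and the mitochondrial one was -0.0853, 0.253 and 0.147. The arrays shared by these genes make the 39 estimates dependent, and their common sign has no test here.

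Yars, which charges tyrosine, came closest to the threshold. Its level was 3.67, 3.55 and 3.43 on the J365-p20 arrays and 3.13, 3.21, 3.11 and 2.91 on the M0-p20 arrays. The arrays of the lines did not overlap, and the difference was 0.46 (SE 0.16, limma adjusted p = 0.508), with p = 0.0286 in the two-sided exact permutation test, the smallest that its 35 divisions of the arrays allow. Mars1, the methionine enzyme, lay at 2.76, 2.44 and 2.44 in J365-p20 against 2.08, 2.30, 2.17 and 1.99 in M0-p20. Those arrays were apart too, by 0.41 (SE 0.17, limma adjusted p = 0.674). Iars, for isoleucine, was also apart, at 3.89, 3.67 and 3.68 against 3.47, 3.62, 3.31 and 3.27, a difference of 0.33 (limma adjusted p = 0.846). Wars, for tryptophan, stood at 5.95, 5.68 and 5.63 against 5.69, 5.45, 5.21 and 5.09, and its arrays overlapped (difference 0.39, limma adjusted p = 0.846). Aars2, which charges alanine in mitochondria, had the opposite sign, at 0.40, 1.11 and 1.26 in J365-p20 and 1.05, 2.28 and 1.87 on the 3 M0-p20 arrays with a value. That estimate of -0.81 (SE 0.38, limma adjusted p = 0.820) rested on arrays that overlapped.

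**Figure D1:**
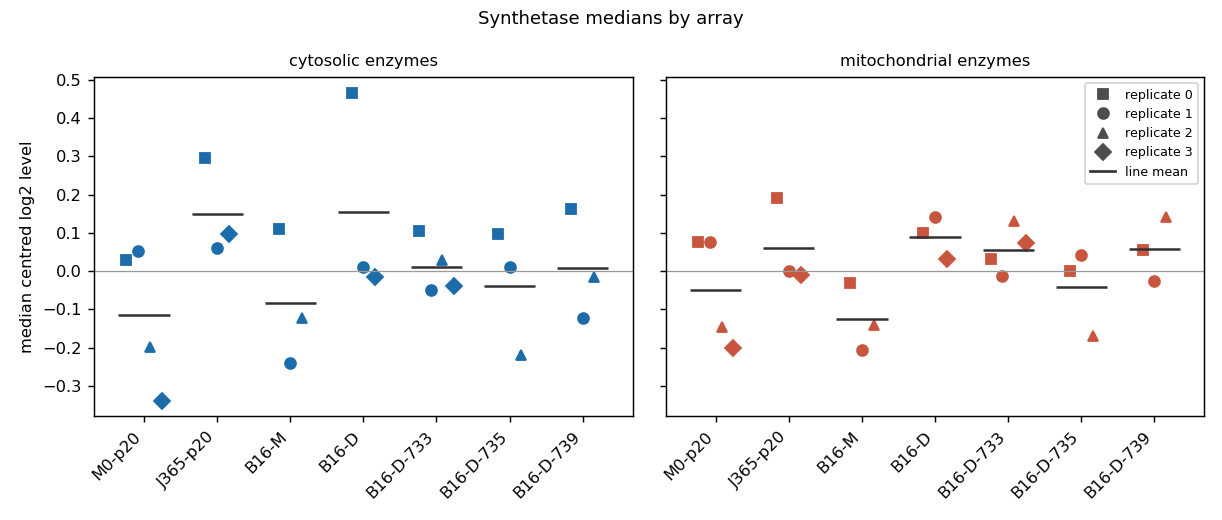
Median log2 level of the 20 cytosolic (left) and 16 mitochondrial (right) synthetases on each array, each gene centred on the mean of the line means of its model (leukemia or melanoma); symbols give the replicate number and bars the mean of the line, with B16-D replicate 2 not drawn. The 3 J365-p20 arrays lie above the 4 M0-p20 arrays in the cytosolic panel only, and replicate 0 is the highest cytosolic array of each melanoma line.

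Cars (cysteine) and Vars2 (mitochondrial valine), which the study names along with Yars, differed little in leukemia. Cars measured 4.42, 4.43 and 4.97 in J365-p20 and 4.34, 4.79, 4.33 and 4.22 in M0-p20, a difference of 0.19 (SE 0.22, limma adjusted p = 0.974). Vars2 measured -0.17, -0.23 and -0.17 against -0.11, -0.34, -0.56 and -0.61, a difference of 0.21 (SE 0.17, limma adjusted p = 0.974). Both sets of arrays overlapped.

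In B16-D against B16-M 3 of the 39 genes rose and none fell, where 3.64% of all 24316 genes tested passed. They were Eef1e1 and Aimp2, both scaffold proteins of the multisynthetase complex, and Farsa, the catalytic subunit of phenylalanine charging. Eef1e1 had the largest difference of the set. It lay at 3.07, 2.49 and 2.37 on the B16-D arrays and at 2.03, 1.53 and 1.75 on the B16-M arrays, a 1.83-fold difference (log2 0.87, SE 0.20, limma adjusted p = 0.0327). The lines did not overlap. Aimp2 measured 5.19, 5.12 and 5.08 in B16-D against 4.65, 4.49 and 4.81 in B16-M, 1.39-fold (log2 0.48, SE 0.12, limma adjusted p = 0.0438). Farsa measured 4.20, 4.07 and 4.03 against 3.70, 3.52 and 3.70, 1.38-fold (log2 0.46, SE 0.10, limma adjusted p = 0.0263). All arrays of B16-D were above all of B16-M for each of the 3 genes, and the exact permutation p is 0.1, the smallest that 3 arrays against 3 allow. On slides 1 and 3, which held arrays of both lines, the differences were 1.03 and 0.335 for Eef1e1, 0.345 and 0.432 for Aimp2, and 0.432 and 0.335 for Farsa.

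These calls were sensitive to single arrays. None of the 39 passed when B16-M replicate 1, B16-M replicate 2, B16-D replicate 0 or B16-D replicate 1 was left out, or when B16-D replicate 2 was put back, although over the single omissions the differences stayed between 0.66 and 1.01 for Eef1e1, 0.40 and 0.56 for Aimp2, and 0.40 and 0.49 for Farsa. Without B16-D-733 replicate 1, which enters through the shared estimate of spread, Farsa alone passed. On B16-D replicate 2 itself the levels were 2.00 for Eef1e1, 4.58 for Aimp2 and 3.61 for Farsa, within the range of B16-M. The 3 probes of Farsa all gave a positive difference, and so did both probes of Aimp2. Aimp2 also missed the threshold with the mean of all probes (0.39, limma adjusted p = 0.0731), after quantile normalization (0.37, adjusted p = 0.108), with normexp background correction (0.46, adjusted p = 0.0721) and with B16-D-733 replicates 1 and 3 averaged (adjusted p = 0.0588). With a date in the title as a block Eef1e1 passed (1.14, limma adjusted p = 0.0124), and Farsa (0.48, adjusted p = 0.0578) and Aimp2 (0.43, adjusted p = 0.126) did not. No B16-M array was dated, and among undated arrays B16-D was replicate 0 alone, which lay above the B16-M mean by 1.30 for Eef1e1, 0.53 for Aimp2 and 0.56 for Farsa.

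Beyond these, Mars2, the mitochondrial methionine enzyme, lay at -2.33, -2.16 and -2.48 in B16-D and at -2.65, -3.57 and -3.19 in B16-M. Its arrays were apart by line and its estimate was 0.81 (SE 0.24, limma adjusted p = 0.0891), short of the threshold. Yars2, the mitochondrial tyrosine enzyme, measured 3.46, 3.27 and 3.26 against 3.06, 2.51 and 2.94 (difference 0.49, limma adjusted p = 0.106), and these arrays did not overlap either. Over the whole set the estimate was above 0 for 34 of 39 genes against 46.1% of all genes, with medians of 0.25 for cytosolic, 0.22 for mitochondrial and 0.48 for scaffold genes against -0.04 for all genes. The cytosolic median rested in part on B16-D replicate 0. Without that array it was 0.07, with 12 of 20 estimates above 0, and 28 of the 39 genes were above 0. With B16-D replicate 2 included the cytosolic median was 0.09 and 32 of the 39 were above 0. With a date in the title as a block it was 0.47. The cytosolic median was 0.362 on slide 1 but -0.126 on slide 3, and 0.118 after quantile normalization. Slide 1 held B16-D replicate 0 and slide 3 held B16-M replicate 0, each the highest cytosolic array of its line. The slide and these arrays cannot be told apart as the source of the change in sign. The 12 ATF4-responsive enzymes had a median of 0.17 and none passed. Cars (difference 0.28, limma adjusted p = 0.580), Yars (0.12, limma adjusted p = 0.699) and Vars2 (0.43, limma adjusted p = 0.30) did not pass.

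**Figure D2:**
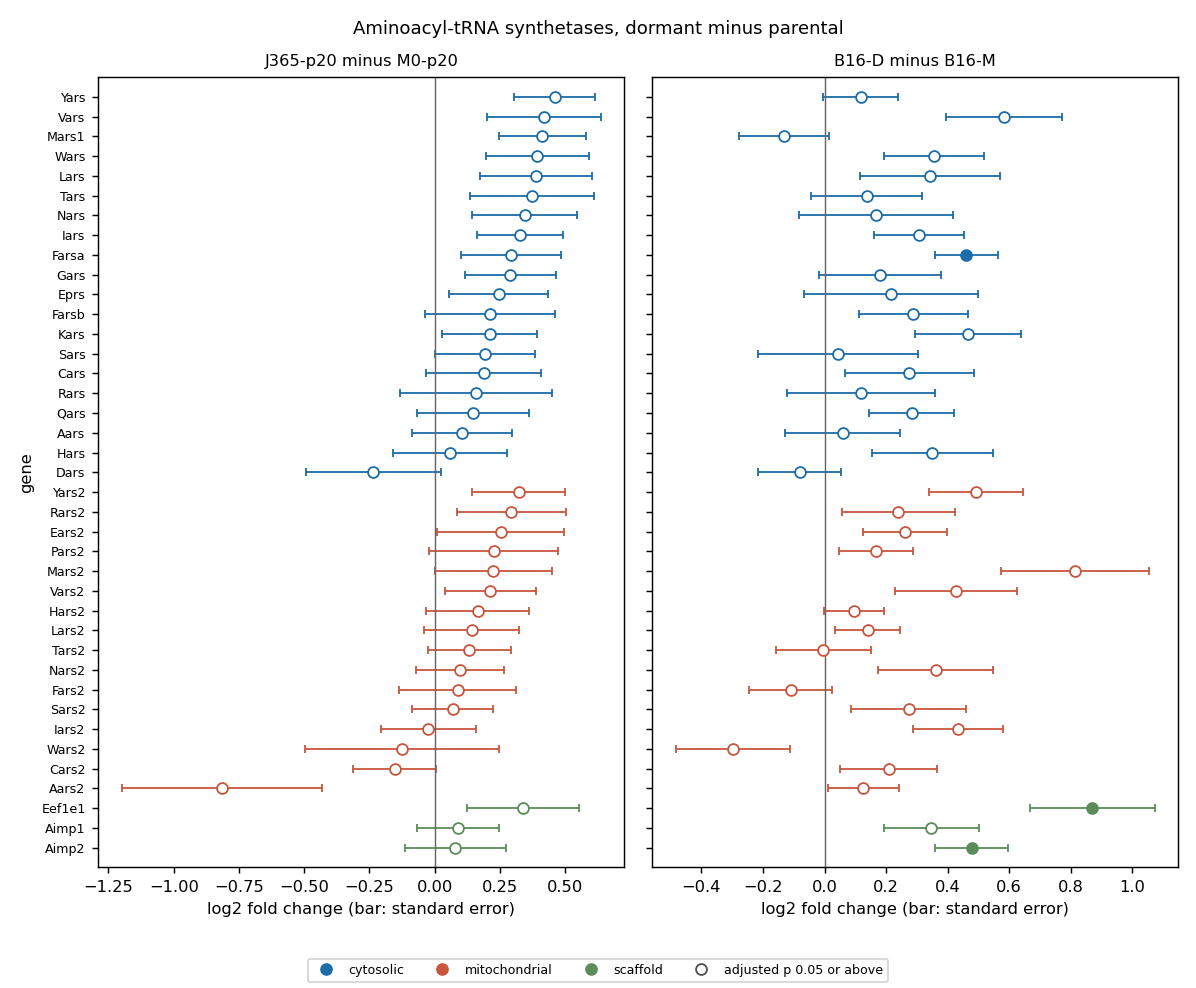
Log2 fold change of each of the 39 genes with its standard error (bars), for J365-p20 minus M0-p20 (left) and B16-D minus B16-M (right); colours give the role, and filled points passed the test. No point is filled in leukemia, and Farsa, Eef1e1 and Aimp2 are filled in melanoma.

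The second-generation lines were each compared with the same 3 B16-M arrays, so these comparisons are not independent of each other or of the one above. In B16-D-733, 1 of the 39 genes passed where 5.59% of all genes did. Farsa rose, from 3.70, 3.52 and 3.70 in B16-M to 3.99, 4.03, 4.15 and 4.03, with no overlap (log2 0.41, SE 0.10, limma adjusted p = 0.0237). On slides 1, 2 and 3 its difference was 0.451, 0.472 and 0.329. With replicates 1 and 3 of this line averaged as 1 sample, Farsa did not pass (0.42, limma adjusted p = 0.0549), nor with a date in the title as a block (0.43, limma adjusted p = 0.0857). Leaving out B16-M replicate 1 or 2, or B16-D-733 replicate 1, 2 or 3, left no gene of the set past the threshold. Without B16-M replicate 0 Mars2 passed as well, and without B16-D replicate 0 Wars2 and Eef1e1 did.

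Eef1e1 in B16-D-733 measured 2.58, 2.38, 2.50 and 2.28, all above B16-M (difference 0.66, SE 0.19, limma adjusted p = 0.0629). With the replicate number as a block over all melanoma arrays, the difference was 0.73 (SE 0.13) and limma's adjusted p = 0.00985. The numbers pair B16-D-733 with B16-M except for replicate 3, which has no B16-M partner. That fit also holds B16-D and B16-D-735, where the numbers did not pair the arrays, so it is no paired test of these lines alone. With the slide as a block Eef1e1 had 0.68 and did not pass (limma adjusted p = 0.0518). It had 0.96 with a date in the title as a block (limma adjusted p = 0.0247) and 0.70 with replicates 1 and 3 averaged (limma adjusted p = 0.102). Aimp2 measured 4.88, 5.03, 5.05 and 5.16 and was also apart from B16-M (difference 0.38, limma adjusted p = 0.0720). Mars2 measured -2.25, -2.58, -2.31 and -2.43, above every B16-M array (difference 0.75, limma adjusted p = 0.0796). Wars2, the mitochondrial tryptophan enzyme, had the opposite sign at -2.67, -2.41, -2.18 and -2.84 against -2.13, -1.94 and -1.96 (difference -0.52, limma adjusted p = 0.115), and it passed with a date in the title as a block (-0.81, limma adjusted p = 0.0347). No B16-M array was dated. With the date as a block the comparison therefore leaned on replicate 0, the only undated array of B16-D-733, and on that of B16-D. Replicate 0 of B16-D-733 differed from the B16-M mean by -0.66 for Wars2 and 0.81 for Eef1e1. The second probe of Wars2 showed no fall in this line, at 0.07. The median difference was 0.20 for mitochondrial and 0.11 for cytosolic enzymes against 0.03 for all genes, and the cytosolic one was -0.0056 after quantile normalization.

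In B16-D-735 the mitochondrial enzymes Wars2 and Aars2 fell, and no gene of the set rose. The 2 of 39 are near the background, as 5.06% of all genes passed. Wars2 measured -2.76, -2.77 and -2.73 against -2.13, -1.94 and -1.96 in B16-M, with no overlap (log2 -0.74, SE 0.18, limma adjusted p = 0.0343). Its second probe gave a smaller estimate, -0.34. Aars2 measured 0.20, 0.26 and 0.22 against 0.69, 0.59 and 0.70, also without overlap (log2 -0.44, SE 0.12, limma adjusted p = 0.0494). Within slides 1, 2 and 3 the differences were -0.81, -0.822 and -0.602 for Wars2, and -0.444, -0.394 and -0.47 for Aars2. No gene of the set passed without B16-M replicate 1 or 2, any one B16-D-735 array, or B16-D-739 replicate 0, or with the mean of all probes in place of the brightest. Aars2 also did not pass with normexp background correction (-0.33, limma adjusted p = 0.118) or with B16-D-733 replicates 1 and 3 averaged (limma adjusted p = 0.0656). Wars2 alone passed without B16-D replicate 1 or 3, B16-D-733 replicate 1 or 3, or B16-D-739 replicate 1 or 2.

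Several mitochondrial enzymes had estimates above 0 in the same line. Iars2, for isoleucine, measured 1.09, 1.05 and 0.91 in B16-D-735 and 0.79, 0.32 and 0.43 in B16-M (difference 0.50, limma adjusted p = 0.0722), and its arrays did not overlap. Its 3 probes gave 0.46, 0.04 and 0.50. Iars2 passed with normexp background correction (0.57, limma adjusted p = 0.0378), with the slide as a block (0.50, adjusted p = 0.0462) and with the replicate number as a block (0.50, adjusted p = 0.0372). Mars2 measured -1.96, -2.49 and -2.78 (difference 0.73, limma adjusted p = 0.118), overlapping B16-M. Cars2, for cysteine, measured 1.19, 1.27 and 1.00 against 0.91, 0.46 and 0.78, apart (difference 0.43, limma adjusted p = 0.162). The medians, 0.03 for cytosolic and 0.07 for mitochondrial enzymes, were close to the -0.01 of all genes, and the cytosolic one was -0.0157 after quantile normalization. Eef1e1 was at 2.15, 1.99 and 1.61 in B16-D-735, overlapping B16-M (difference 0.14, limma adjusted p = 0.897). The summed fibroblast markers were higher in B16-D-735 than in any other melanoma line, as given above.

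In B16-D-739 none of the 39 passed (limma, 8 with an unadjusted p under 0.05) where 3.71% of all genes did. Mars2 measured -2.32, -2.54 and -2.05, above all B16-M arrays (difference 0.84, SE 0.24, limma adjusted p = 0.0850). Eef1e1 measured 2.57, 2.21 and 2.46, apart from B16-M as well (difference 0.64, SE 0.20, limma adjusted p = 0.118). With the replicate number as a block over all melanoma arrays, Eef1e1 passed (difference 0.645, SE 0.14, limma adjusted p = 0.0248). The numbers pair these lines too, but not every line of that fit. Same-numbered arrays of these lines also shared a slide, so number and slide cannot be told apart as the basis of the pairs, and with the slide as a block over all melanoma arrays Eef1e1 did not pass (0.645, limma adjusted p = 0.0971). Within slides its difference was 0.713, 0.684 and 0.539. Aimp2 (0.36), Farsa (0.31) and Pars2 (0.32), the last charging proline in mitochondria, had limma adjusted p-values of 0.148, 0.148 and 0.211. Mars2 passed without B16-M replicate 0, and Eef1e1 without B16-D replicate 0. The mitochondrial median was 0.23 and the cytosolic one 0.09.

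**Figure D3:**
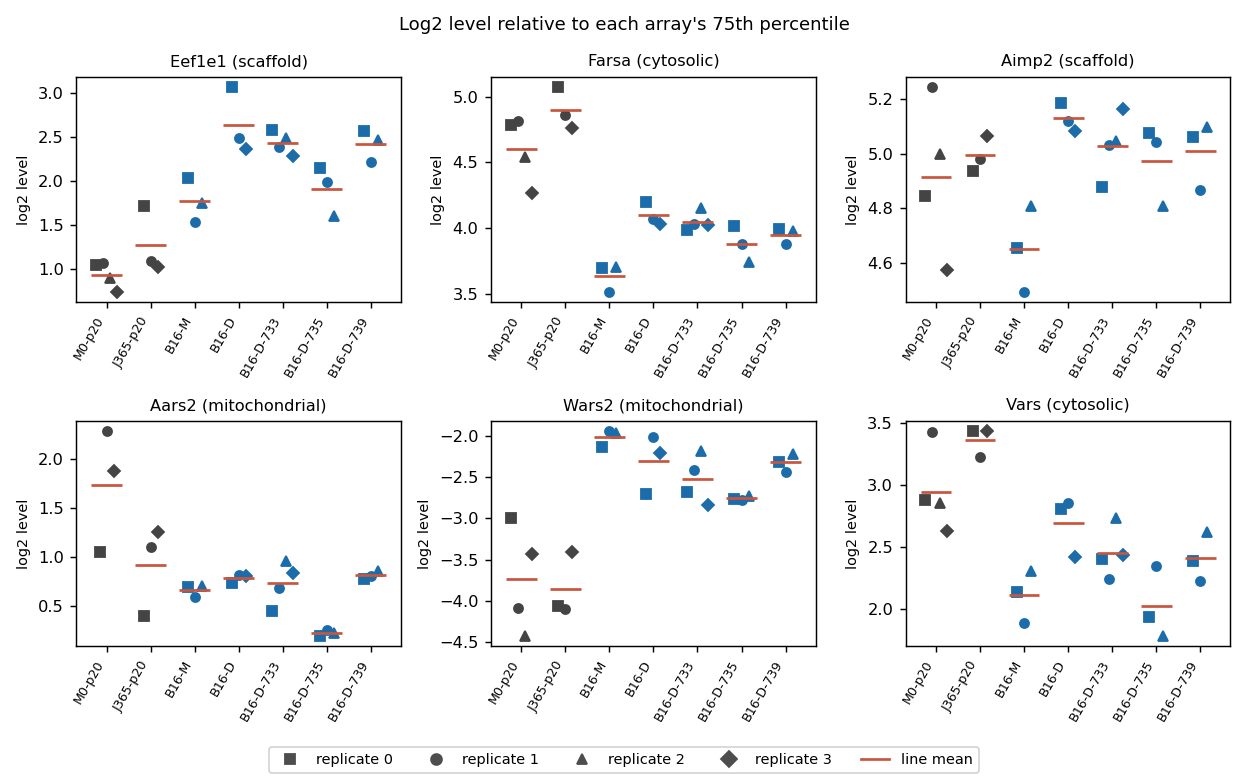
Log2 level, relative to the array's 75th percentile, of the 6 genes that passed in a comparison between melanoma lines, by array in all 7 lines; symbols give the replicate number and bars the line mean, and each panel has its own axis. Eef1e1, Farsa and Aimp2 lie lowest among melanoma lines in B16-M, whereas Aars2 and Wars2 lie lowest in B16-D-735.

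Across the 5 melanoma lines, B16-D had the highest mean for 16 of the 20 cytosolic enzymes. It was also highest for all 3 scaffold genes, which were each lowest in B16-M. Both counts changed without B16-D replicate 0, to 6 of the 20 cytosolic enzymes and 1 of the 3 scaffold genes highest in B16-D. Without every replicate 0 array of the melanoma lines they were 6 and 2. The scaffold genes were lowest in B16-M in each case. Mitochondrial enzymes were spread more widely, with 6 of 16 highest in B16-D-739 and 9 lowest in B16-M. Few of these orders rest on differences past the test. Across the 5 lines Aars2 (limma F-test, adjusted p = 0.0196), Eef1e1 (adjusted p = 0.0379) and Farsa (adjusted p = 0.0461) passed, where 9.98% of all genes did. Leaving out B16-D-735 replicate 1 or 2 left none past the F-test, and Aars2 alone passed with B16-D-733 replicates 1 and 3 averaged, or without B16-M replicate 1 or 2, B16-D replicate 1, any one B16-D-733 array, or B16-D-739 replicate 0 or 2.

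Each second-generation line was then set against the same 3 B16-D arrays. In B16-D-735 Aars2, Eef1e1 and Vars (valine) fell and no gene of the set rose, where 8.04% of all genes passed. Aars2 was at 0.20, 0.26 and 0.22 against 0.74, 0.82 and 0.81 in B16-D (log2 -0.56, SE 0.12, limma adjusted p = 0.0100). Eef1e1 was at 2.15, 1.99 and 1.61 against 3.07, 2.49 and 2.37 (log2 -0.73, SE 0.20, limma adjusted p = 0.0439), and Vars was at 1.93, 2.34 and 1.78 against 2.80, 2.85 and 2.41 (log2 -0.67, SE 0.19, limma adjusted p = 0.0456). For each of the 3 genes the arrays of the lines did not overlap, and the sign was the same on slides 1 and 3. With the slide as a block Eef1e1 no longer passed (-0.69, limma adjusted p = 0.0594), nor with B16-D-733 replicates 1 and 3 averaged (limma adjusted p = 0.0589). Aars2 did not pass with a date in the title as a block (-0.41, limma adjusted p = 0.0685). Iars (difference -0.49, limma adjusted p = 0.0639) and Qars, for glutamine (-0.40, limma adjusted p = 0.103), did not pass. Aars2 alone passed when B16-D replicate 1, B16-D-733 replicate 0, 1 or 3, B16-D-735 replicate 2, or B16-D-739 replicate 0 or 1 was left out, the other lines entering through the shared estimate of spread.

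Against B16-D no gene of the set passed in B16-D-733, where 0.477% of all genes did, or in B16-D-739, where 0.317% did (limma), and none had an unadjusted p under 0.05 in either. The smallest p in B16-D-733 belonged to Qars (difference -0.19, limma adjusted p = 0.923) and in B16-D-739 to Yars2 (-0.31, limma adjusted p = 0.951). The estimate was above 0 for 6 and 8 of the 39 genes respectively, against 54.0% and 52.4% of all genes. Without B16-D replicate 0 it was above 0 for 18 and 22, so these counts turned on that array.

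Whether the change with dormancy differed between melanoma and leukemia was tested as B16-D minus B16-M less J365-p20 minus M0-p20. None of the 39 passed (limma, 3 with an unadjusted p under 0.05) where 2.28% of 26757 genes did. Aars2 had a difference of 0.94 (SE 0.35, limma adjusted p = 0.274), with estimates of 0.13 in melanoma and -0.81 in leukemia, and it passed when M0-p20 replicate 0 was left out (1.28, limma adjusted p = 0.0136). Mars1 had -0.54 (SE 0.20, limma adjusted p = 0.285) and Iars2 0.46 (SE 0.21, limma adjusted p = 0.509). Eef1e1, whose leukemia arrays at 1.71, 1.08 and 1.03 overlapped M0-p20 at 1.04, 1.06, 0.90 and 0.74, had 0.53 (limma adjusted p = 0.655).

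The parental lines differed far more than dormant from parental cells. In B16-M against M0-p20, 19 of the 39 passed, 9 higher and 10 lower, where 56.2% of all genes passed, so the set's share is near the background. By role, 4 cytosolic enzymes were higher and 6 lower in melanoma, 4 mitochondrial enzymes were higher and 4 lower, and Eef1e1 was higher. Wars2 had the widest gap, at -2.13, -1.94 and -1.96 in B16-M against -2.996, -4.09, -4.42 and -3.43 in M0-p20, 3.31-fold (log2 1.73, SE 0.27, limma adjusted p = 1.87e-05). Its second probe gave 0.24. Hars, the histidine enzyme, was lower in melanoma, at 0.89, 0.68 and 0.74 against 2.75, 2.45, 2.15 and 2.07, 3.00-fold (log2 -1.58, SE 0.20, limma adjusted p = 9.72e-07), and its difference was -1.71, -1.73 and -1.26 on slides 1, 2 and 3.

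Genes for a single amino acid went opposite ways in the parental lines. Farsa, the catalytic subunit of the cytosolic phenylalanine enzyme, was lower in melanoma (log2 -0.96, SE 0.13) and Farsb, its partner subunit, higher (0.84, SE 0.20). Yars was lower (-0.44, SE 0.12) and mitochondrial Yars2 higher (0.54, SE 0.15), while Aars was higher (0.56, SE 0.18) and Aars2 lower (-1.07, SE 0.24). All of these passed, with limma adjusted p-values of 0.0119 or less. Farsa measured 3.70, 3.52 and 3.70 against 4.78, 4.82, 4.54 and 4.27, and Farsb 3.13, 2.88 and 2.84 against 2.42, 2.28, 1.84 and 1.90. Neither gene's arrays overlapped. The mitochondrial enzymes for proline (Pars2, -1.14, SE 0.17), asparagine (Nars2, -1.05, SE 0.17) and methionine (Mars2, -0.84, SE 0.23) were lower, and Cars2 (0.87, SE 0.14) and Fars2 for phenylalanine (0.45, SE 0.16) higher. The second probe of Cars2 gave only 0.02, while that of Fars2 gave 0.38 and that of Pars2 -1.91. Dars (-0.88), Vars (-0.84) and Qars (-0.70) were lower, and Eef1e1 (0.84), Rars for arginine (0.75) and Gars for glycine (0.53) higher.

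**Figure D4:**
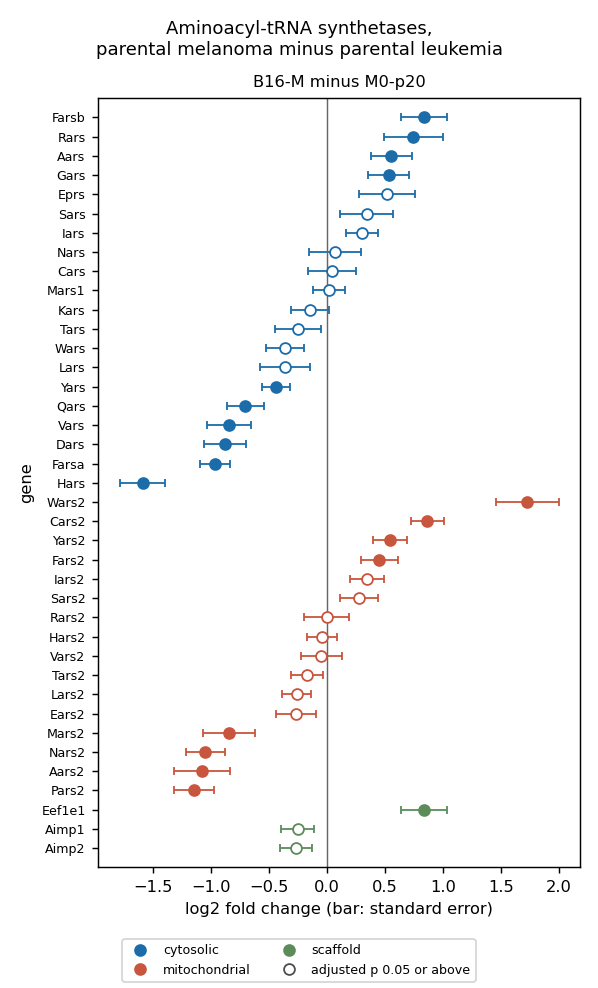
Log2 fold change of each of the 39 genes in B16-M minus M0-p20 with its standard error (bars); colours give the role and filled points passed the test. Wars2 (1.73) and Hars (-1.58) lie at the ends, and filled points fall on both sides of 0 among cytosolic and mitochondrial enzymes.

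Within the melanoma lines the array numbered replicate 0 stood apart for the cytosolic enzymes, a pattern noticed in the data and given as a description. In all 5 lines replicate 0 was the highest array for 9 of the 20 cytosolic enzymes (Eprs, Gars, Iars, Lars, Nars, Rars, Sars, Tars and Yars), for Tars2 alone of 15 mitochondrial enzymes with a value on every array, and for Eef1e1 of the 3 scaffold genes. Over all 24275 genes with values the share was 3.761%. The replicate 0 arrays lay on slide 3 for B16-M and B16-D-739, slide 1 for B16-D and slide 2 for B16-D-733 and B16-D-735. Of the 12 ATF4-responsive enzymes 8 had this order, against 1 of the 8 other cytosolic enzymes, Rars. Among those 8 were 4 of the 5 genes with the ATF4 letters in the promoter (not Aars). Eprs and Sars, whose promoters lack the letters, had the order too, as did Lars and Nars, for which no promoter was found. The order was therefore not limited to genes with the letters.

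The size differed between lines. The median excess of replicate 0 over the mean of its line's other arrays was 0.265 in B16-M, 0.502 in B16-D, 0.0558 in B16-D-733, 0.224 in B16-D-735 and 0.271 in B16-D-739 for cytosolic enzymes. For Eprs, which charges both glutamate and proline, the excess was 0.48, 1.11, 0.36, 0.41 and 0.36 in that order of lines. Sars, for serine, had 0.33, 1.00, 0.30, 0.22 and 0.51, and Lars, for leucine, 0.49, 0.70, 0.47, 0.27 and 0.47. Each is the spread inside a line, and for Eprs in B16-D it exceeded the difference of 0.22 between B16-D and B16-M. Of the 23 amino acid response genes with values, 14 (60.87%) had replicate 0 highest in all 5 lines, among them Trib3, an ATF4 target, with 0.46, 2.62, 1.62, 1.17 and 1.79, and Asns, which makes asparagine, with 0.64, 0.80, 0.60, 0.23 and 0.99. In B16-D and B16-D-733 replicate 0 was also the array without a date in its title, so there the number and the date cannot be told apart, while no array of the other melanoma lines had one. Culture conditions of single arrays are not labelled, and their part was not tested.

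**Figure D5:**
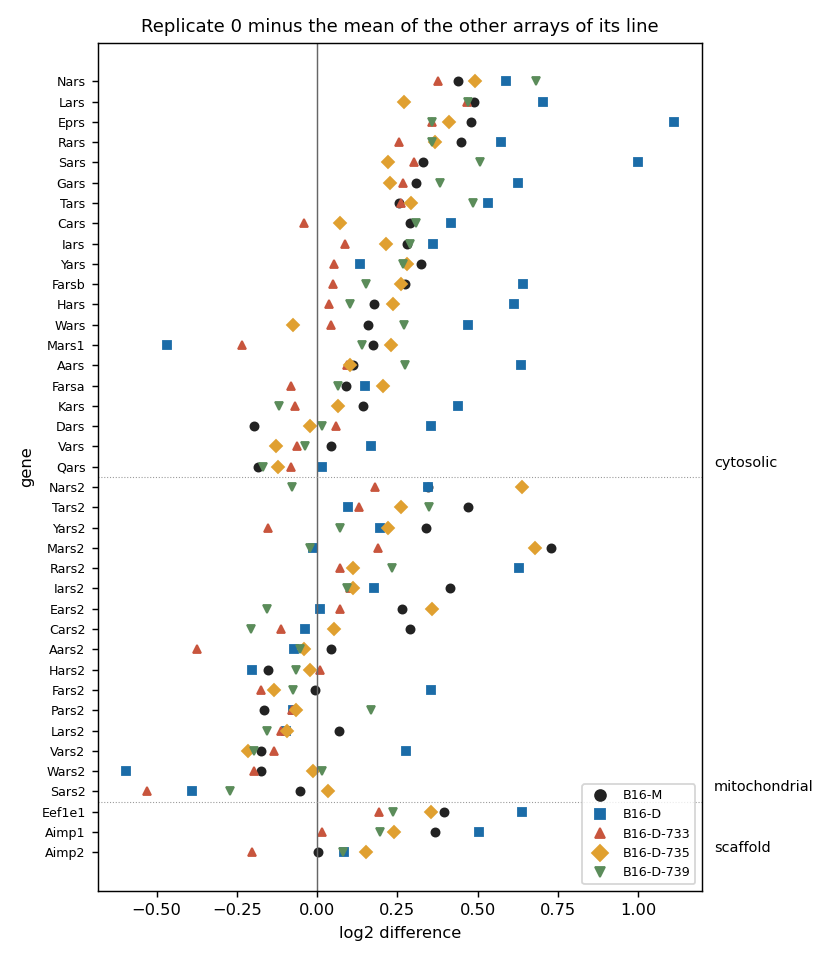
Log2 level of each of the 39 genes on replicate 0 minus the mean of the other arrays of its line, for the 5 melanoma lines (colours and symbols). Genes are grouped by role and ordered by the median of these differences over the lines. Most cytosolic enzymes lie right of 0 in every line, Eprs reaching 1.11 in B16-D, while mitochondrial enzymes lie on both sides.

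Without the replicate 0 arrays of all 5 melanoma lines, Eef1e1 and Mars2 passed in B16-D against B16-M, Eef1e1, Mars2 and Farsa in B16-D-733, none in B16-D-735 and Mars2 in B16-D-739, and Aars2 alone in B16-D-735 against B16-D (limma, chosen after seeing the data). In B16-D Eef1e1 passed with and without these arrays, but not when B16-D replicate 0 alone was left out. Aimp2 and Farsa did not pass in B16-D without the replicate 0 arrays. All B16-D and B16-D-733 arrays left in this fit had a date in the title, and no B16-M array did. Line and date therefore cannot be told apart here in B16-D or B16-D-733 against B16-M.

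Other genes of transfer RNA charging and use were measured as listed for this purpose. Of all genes tested, 1.08% passed in leukemia, 3.64% in B16-D, 5.59% in B16-D-733, 5.06% in B16-D-735 and 3.71% in B16-D-739. Against such shares, a list of 14 with none passing is near the background. Of 14 charging partners, which mature, export or edit charged transfer RNA, none passed in leukemia, in B16-D, in B16-D-733 or in B16-D-739 against the parental line (limma). Trnt1, which adds the CCA end, rose in B16-D-735 (log2 0.63, SE 0.15, limma adjusted p = 0.0265). Of 10 elongation factors 2 rose in each dormant melanoma line and none fell. Tufm, the mitochondrial factor that carries charged transfer RNA to the ribosome, was one of them in every line, by 0.49 in B16-D, 0.53 in B16-D-733, 0.71 in B16-D-735 and 0.48 in B16-D-739 (limma adjusted p-values 0.0477, 0.0155, 0.00373 and 0.0495), against the same B16-M arrays. The others were the mitochondrial factors Gfm2 (0.43 in B16-D and in B16-D-739) and Guf1 (0.39 in B16-D-735) and the cytosolic exchange factor subunit Eef1d (0.43 in B16-D-733). Of 20 amino acid response genes tested in leukemia 2 passed, in opposite directions. Cth, the last enzyme of cysteine synthesis, rose by 5.65 (SE 0.25, limma adjusted p = 4.78e-05), and Psph, of serine synthesis, fell by 1.66 (SE 0.21, limma adjusted p = 0.00989). In melanoma, of 23 such genes, Vldlr rose in B16-D-733 (2.66, limma adjusted p = 0.00800) and none passed in the other dormant lines against B16-M (limma).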

How the data were processed

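Total RNA of 24 samples was labelled with Cy3 and hybridised to mouse Agilent arrays of 1 colour on 3 slides of 8. Per the file headers, Agilent Feature Extraction 10.7.3.1 subtracted background and detrended each array, and the authors deposited these spot intensities unscaled; the deposited series table holds the same intensities. Control spots (3671 per array) and spots marked as outliers were left out, none being saturated. Log2 intensity minus the array's 75th percentile over 59305 spots was used, with the brightest probe per gene in each model, named through RefSeq accessions. Of 56605 probes, 32994 had a symbol, giving 22911 symbols; 21 of the 39 genes had several probes. A gene was tested if well above background on at least 3 arrays of the model. limma 3.58.1 (R 4.3.3) was fitted separately to 7 leukemia arrays (23036 genes), 16 melanoma arrays without B16-D replicate 2 (24316) and all 23 (26757), with Benjamini-Hochberg adjustment over all genes. Brightness limits precision, as does the number of arrays. On simulated arrays the fit recovered 0% of changes of 0.5 on the log2 scale in leukemia and 22% in B16-D against B16-M, and 18% and 34% of changes of 1. The study names GeneSpring for statistics and filtering; the normalization and the test are not given in the sources used here.

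Members and lists were chosen with earlier results of these data known. Values per array are given for genes that passed (at most 12 per comparison) or had the smallest p, up to 5, and for Cars, Yars and Vars2. Replicate numbers were taken to pair B16-M with B16-D-733 and with B16-D-739, where deviations of same-numbered arrays correlated at 0.52, 0.28 and 0.78, and at 0.69, 0.52 and 0.78. The 3 pairs of B16-D-739, and pair 2 of B16-D-733, shared a slide, so for B16-D-739 number and slide are the same pairing. B16-D-733 replicate 3 was numbered from the start of its title; the rest of the title gives number 1. Alternatives were quantile normalization, normexp (offset 50, on median spot and background signals, the mean signal not being in the files), the mean of all probes, other filters, slide or replicate blocks, single arrays left out, B16-D replicate 2 included, and each pair of lines alone. Chosen after seeing the data were a date in the title as a block, B16-D-733 replicates 1 and 3 averaged, and every replicate 0 array left out. Figures were drawn with matplotlib 3.10.9.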

Additional observations from a re-analysis of the deposited data

Results flagged for a closer look

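Lars, the cytosolic leucine enzyme, measured 3.66 on B16-D-733 replicate 0, far from the other 3 arrays of that line at 3.18 to 3.22, a gap of 0.912 of the line's range. It was the 1 outlier among 48 groups of 4 arrays examined. Chance flags about 1 group in 20, so 1 in 48 is no more than chance gives. Lars was also among the genes with replicate 0 highest in all 5 melanoma lines.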

How the results depend on the processing

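The count of genes passing, out of 39, moved as follows. B16-D against B16-M (3) gave 1 with normexp (Eef1e1), and 0 without a filter on dim probes, with B16-D replicate 2 included or with both lines alone. B16-D-733 against B16-M (1) gave 2 after quantile normalization, 0 with the mean of all probes, 3 with genes above background on every array, 0 without a filter, 4 with the slide as a block (Aimp2, Vars, Vars2 and Farsa), 2 with the replicate number as a block, 0 with B16-D replicate 2, 0 with both lines alone and 3 without the replicate 0 arrays. B16-D-735 against B16-M (2) gave 0 with the mean of all probes, 0 without a filter, 1 with B16-D replicate 2, 1 with both lines alone and 0 without replicate 0. B16-D-739 against B16-M (0) gave 1 with the slide (Vars2) or the replicate number (Eef1e1) as a block, and 1 without replicate 0. B16-D-735 against B16-D (3) gave 5 with the mean of all probes, 1 without a filter, 1 with B16-D replicate 2, 0 with both lines alone and 1 without replicate 0. The F-test over melanoma lines (3) gave 0 without a filter, 5 with the slide block, 1 with B16-D replicate 2 and 1 without replicate 0. With a date in the title as a block B16-D gave 1 and B16-D-733 gave 2 against B16-M, and their cytosolic minus mitochondrial medians moved from 0.0216 to 0.3307 and from -0.0879 to 0.1802. With B16-D-733 replicates 1 and 3 averaged the counts were 0 in B16-D-733 and 1 in B16-D-735 against B16-M, 1 in B16-D-735 against B16-D and 1 in the F-test. Cytosolic minus mitochondrial median change in leukemia was 0.1305, and 0.0515 after quantile normalization. With the mean of all probes, B16-D-733 minus B16-D became -0.0572 for Pars2 and 0.0276 for Iars2. The causes were not tested. Leaving out single arrays gave 0 in leukemia, 0 to 3 in B16-D, 0 to 3 in B16-D-733, 0 to 3 in B16-D-735 and 0 to 1 in B16-D-739 against the parental lines, 1 to 4 in B16-D-735 and 0 in B16-D-733 and B16-D-739 against B16-D, 0 to 3 in the F-test, 0 to 1 for melanoma against leukemia and 16 to 20 for the parental lines; cytosolic minus mitochondrial medians ran from 0.086 to 0.1877 in leukemia, -0.1336 to 0.1409 in B16-D, -0.1086 to -0.0055 in B16-D-733, -0.1021 to 0.0389 in B16-D-735 and -0.3044 to -0.0525 in B16-D-739. Of single gene values under an alternative, 1545 kept direction and side of the threshold, 120 no longer passed, 31 newly passed and 2 reversed. The replicate block changed no call of a paired comparison other than Eef1e1; where the numbers did not pair the arrays it gave 2 in B16-D and 3 in B16-D-735 against B16-M, 4 in B16-D-735 against B16-D, 2 in the F-test and 23 for the parental lines, and in J365-p20, and in B16-D-735 against B16-M, not every array correlated best with its own number.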
